A study of Saccharomyces cerevisiae with 2 samples.

Results

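The stretches between annotated features of the budding yeast genome were examined on both strands in a CRAC experiment on Bud22. CRAC (UV crosslinking and analysis of cDNA) purifies a tagged protein with the RNA crosslinked to it and sequences that RNA. The regions were all rows that the authors' count tables class as intergenic, 2496 regions among 5131 regions and named features with a count. Of these, 625 had reads in the Bud22 library against 2414 in the control. One library came from yeast with the genotype Bud22-HIS-TEV-proteinA and 1 from W303 wildtype yeast without the tag. Both cultures were grown in YPD to an optical density of 1, kept for 4 h in SDC-URA medium containing 4-thiouracil and then exposed for 30 min to UV light of 365 nm. One label conflicts: the control shares the growth description of the tagged strain, although the genotype given for it is wild type, and it was taken as untagged.

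Bud22 is a nucleolar protein known for its part in making the small ribosomal subunit. In yeast, RNA polymerase III transcribes tRNA genes as precursors with a leader and a trailer, which RNase P and RNase Z remove. RNA polymerase I transcribes the long rRNA precursor, RDN37, and RNA polymerase III transcribes 5S rRNA, RDN5, between the RDN37 genes. Cryptic unstable transcripts (CUTs) are short RNAs from between genes that the nuclear exosome degrades. A read between genes can come from any of these, and a read on the strand opposite to the annotated one counts as antisense.

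Each region has a sense count, an antisense count and a number of reads that never exceeded the sum of both. That number was read from its values as the count of distinct read entries and is called entries below. Each overlap of a read with a feature, or with a copy of it, counted once more. The Bud22 library held 444791 such overlaps from 188065 mapped reads, and the control 251249 from 97270. Each group was 1 library, so there is no replicate check and no test. Intervals are exact 95% intervals for counting error only, and copies of 1 molecule made by PCR are not independent. Where a pair of values is given, the Bud22 library comes first, and a ratio is Bud22 over control. Fewer cells and less RNA per cell cannot be told apart.

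Intergenic regions took 217869 overlaps, or 48.98% (48.84 to 49.13), in the Bud22 library against 107639, or 42.84% (42.65 to 43.04), in the control. The ratio of these shares was 1.14 (1.14 to 1.15), and by entries 1.13 (1.10 to 1.17). Without the 150 regions whose antisense counts matched a tRNA gene or an rRNA feature, described below, the ratio was 0.969. The Bud22 library rested on 5764 entries with 37.8 reads each and the control on 28971 entries with 3.72 reads each. Named features had similar values, 36.1 and 3.62 reads per entry. A given read count in the Bud22 library thus stands for fewer distinct entries, so ratios by entries are given where they differ from those by reads.

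Most intergenic reads lay antisense to the annotated strand of their region. The antisense share was 81.4% (81.2 to 81.6) in the Bud22 library against 80.3% (80.1 to 80.6) in the control. Named features had antisense shares of 4.82% and 7.46%. The tRNA genes held 146859 and 44381 sense reads and 0 antisense reads in either library. Single regions were mostly read on 1 strand: in the Bud22 library 245 had only sense reads, 351 only antisense reads and 29 both. In the control these numbers were 604, 1490 and 320. A region on 1 entry can be read on 1 strand only, and 214 Bud22 and 1034 control regions were of that kind.

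The control spread its reads over many more regions, most with few reads. The median region with reads held 34 reads in the Bud22 library against 4 in the control, on 2 entries in each. Regions on 1 entry numbered 214 (34.2%) and 1034 (42.8%). The 543 regions with reads in both libraries held 98.97% of Bud22 and 89.6% of control intergenic reads. A further 82 regions were read only in the Bud22 library, where they held 2247 reads, 1.03% of its total. The 1871 regions read only in the control held 11224 reads, 10.4% of its total.

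A few regions held most of the reads in both libraries. The 10 most counted regions held 36.7% of intergenic reads in the Bud22 library against 37.5% in the control, and the leading 20 held 58.1% and 51.9%. It took 15 and 19 regions to reach 50% of the reads, and 122 and 313 to reach 90%. By entries the leading 10 held 28.7% and 36.5%. The libraries differed in the single leading region, INT_0_5234, which held 6.33% of Bud22 and 16.0% of control reads. The lists of 10 shared 4 regions, 40% of each, and the lists of 20 shared 16, 80% of each.

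**Figure D1:**
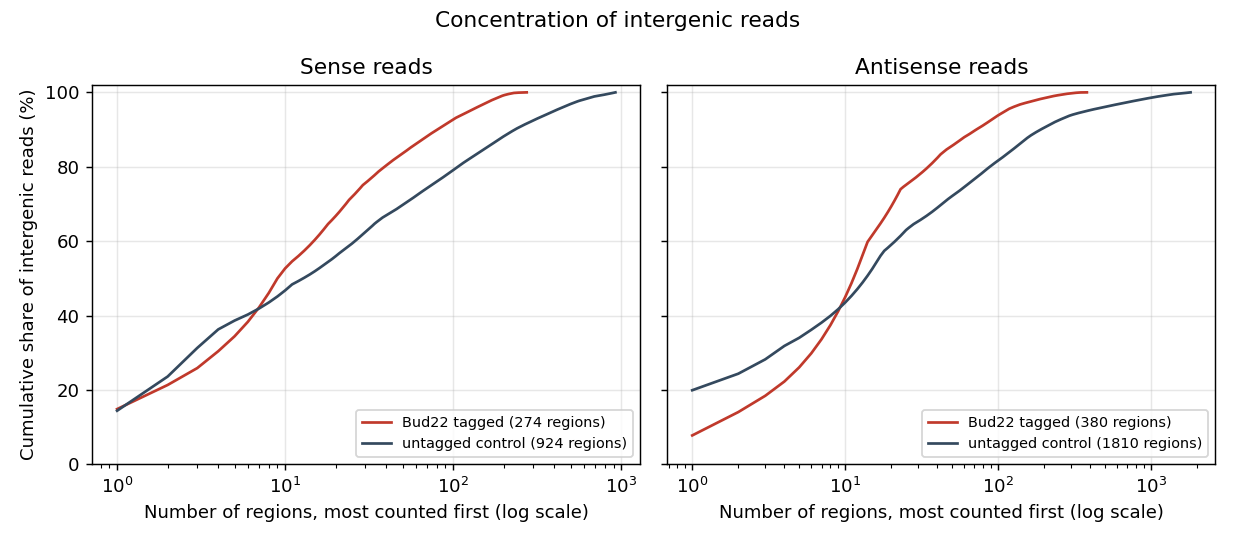
Cumulative share of intergenic reads in percent (y axis) against the number of regions, most counted first (x axis, log scale), for sense reads (left) and antisense reads (right), with 1 line per library. From 10 regions on the Bud22 line is the higher one; 10 regions held 52.7% of sense reads in the Bud22 library against 46.7% in the control, and 45.0% and 43.5% of antisense reads.

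Most antisense reads lay in regions whose counts equalled or nearly equalled the sense counts of a tRNA gene or rRNA feature. Exactly the same pair of counts in both libraries, with at least 10 reads over both, was found for 122 regions with tRNA genes and 7 with rRNA features. The same rule paired 111 regions with other named features and 78 with features of several classes. Those 111 held 1.56% of Bud22 and 2.84% of control antisense reads, and the 78 held 0.246% and 2.22%. The 129 regions with exactly the counts of tRNA genes or rRNA features held 47.1% of Bud22 and 29.8% of control antisense reads. Of these 129, 87 had equal entries as well. Allowing a difference of at most 3 reads or 2% for pairs of at least 100 reads, a tolerance set after the values were seen, gave 142 tRNA and 8 rRNA matches. These 150 regions held 79.1% and 64.0% of antisense reads, and 100 of them had no sense read in either library. Sense counts of regions equalled the sense counts of tRNA genes at 7 regions with 26 and 197 reads, and of rRNA features at 1 region with 569 and 1055. They equalled the antisense counts of rRNA features at 4 regions with 140 and 0 reads. The tRNA genes had no antisense reads that a region could equal. Copies of a tRNA share reads, so a match names a tRNA family and not a gene, and equal counts are no proof of position. The tables used here give no positions for the regions.

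The numbers in the region names gave a second description of where the matched regions lie. Among regions matched to exactly 1 tRNA gene, region number was set against that gene's chromosome, with chromosomes in alphabetical order of their Roman numerals. The chromosome came from the gene's name or, for names without one such as SUP3 and TRT2, from its systematic name. Spearman's rho was 0.757 over 32 regions of at least 10 reads on 12 chromosomes, and 0.992 over 16 regions of at least 100 reads on 9 chromosomes. The second minimum was set after the first value was seen. The numbers followed the chromosome order more closely at the higher minimum.

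**Figure D2:**
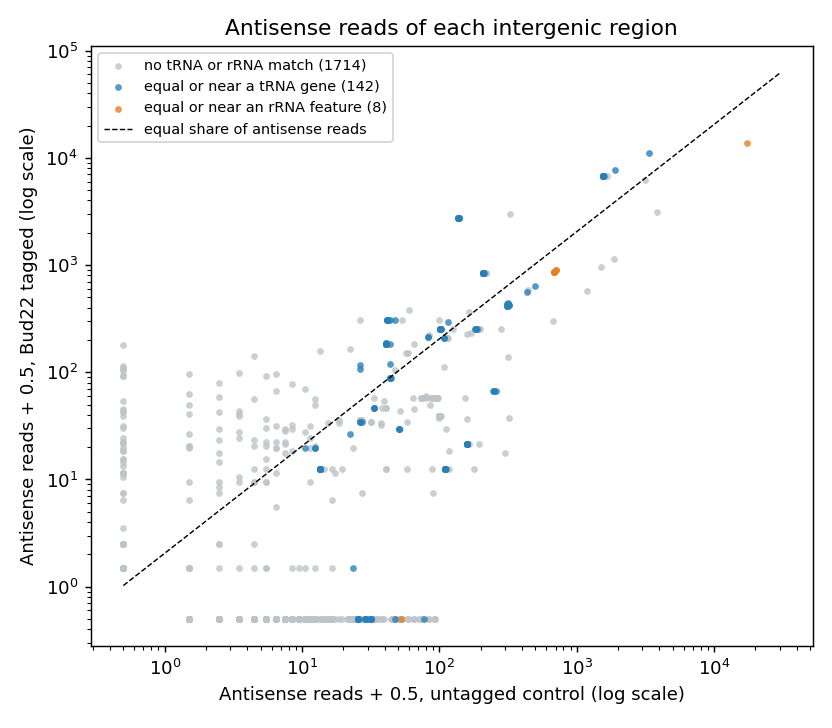
Antisense reads plus 0.5 of each intergenic region in the Bud22 library (y axis, log scale) against the control (x axis, log scale), coloured by whether the counts equal or nearly equal those of a tRNA gene (142 regions) or an rRNA feature (8 regions). The dashed line marks equal shares of antisense reads; the 7 regions matched to tyrosine tRNA, at 2721 reads in the Bud22 library, lie above it, and INT_0_5234, matched to RDN37, lies below.

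Matched regions fell into 26 tRNA families, and a single family held much of the total. The isoleucine tRNA with anticodon AAU, tI(AAU), matched 11 regions with 79309 and 19247 antisense reads, 44.7% and 22.3% of all antisense reads. Its regions held 6707 to 11141 reads in the Bud22 library on 100 to 118 entries, and 1554 to 3334 in the control on 188 to 225 entries. The ratio of shares of intergenic reads was 2.04 (2.00 to 2.07). INT_0_2066, with 11141 and 3334 reads, nearly equalled tI(AAU)I1 with 11132 and 3332, and INT_0_2658 held the 7757 and 1889 reads of tI(AAU)E2. Their ratios were 1.65 (1.59 to 1.72) and 2.03 (1.93 to 2.13) by reads, and 2.64 (2.09 to 3.31) and 2.69 (2.11 to 3.41) by entries. The isoleucine ratios lie close to 2: without INT_0_5234 in the totals the log2 ratio of INT_0_2658 was 0.86, under the 2-fold limit. INT_0_2596, with 6806 and 1664 antisense reads, had a like ratio of 2.00 (1.90 to 2.11) but counts beyond the tolerance of any gene.

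The tyrosine tRNA regions had the highest ratio of the 26 families. All 7 regions held 2721 antisense reads in the Bud22 library against 136 to 139 in the control, on 55 to 57 and 33 to 46 entries. Those are the counts of the SUP genes, the tyrosine tRNA genes in which suppressors of nonsense mutations were found; SUP2 held 2721 and 139 sense reads and SUP6 held 2721 and 136. The family's ratio was 9.80 (9.19 to 10.5). INT_0_2805 had a ratio of 9.88 (8.32 to 11.8) by reads and 8.68 (5.56 to 13.8) by entries, so both counts put it higher in the Bud22 library. INT_0_4239, with 2973 and 325 antisense reads, matched no gene.

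Other families differed in both directions. The alanine family tA(AGC) matched 8 regions of 838 to 842 and 207 to 209 reads, with a ratio of 2.00 (1.89 to 2.11); by entries the regions had ratios of 1.54 to 2.92. The glycine family tG(GCC) matched 14 regions of 416 to 632 and 312 to 499 reads, with a ratio of 0.661 (0.637 to 0.687). Entries turned that direction: the 14 regions had ratios of 1.83 to 2.59 by entries, and 6 of them were at least 2-fold higher in the Bud22 library with an interval above 1. The asparagine family tN(GUU), with 9 regions, had a ratio of 1.24 (1.15 to 1.34) by reads and regional ratios of 1.46 to 1.72 by entries. The threonine family tT(AGU), with 10 regions, had 2.26 (2.03 to 2.52) by reads and 1.59 to 2.15 by entries, with no region past the 2-fold limit and its interval. By reads, far lower shares in the Bud22 library were found for 4 cysteine tC(GCA) regions, 66 reads against 246 to 256, and for 8 leucine tL(CAA) regions, 21 against 157 to 158. Their ratios were 0.131 (0.114 to 0.150) and 0.0657 (0.0556 to 0.0773). By entries the regions had ratios of 0.410 to 0.468 and 0.670 to 0.745, and no interval left out 1. The glutamate family tE(UUC) was lower by both counts in all 6 of its regions. They held 12 reads on 1 entry in the Bud22 library against 110 to 111 on 40 to 43 entries in the control. The family's ratio was 0.0538 (0.0416 to 0.0687) by reads, and its regions had ratios of 0.117 to 0.126 by entries.

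Reads and entries also disagreed for the serine family tS(AGA). Its 7 regions each held 307 antisense reads in the Bud22 library against 41 to 47 in the control, a ratio of 3.59 (3.18 to 4.06). Those 307 reads were 3 to 5 entries, against 25 to 36 in the control. For INT_0_5038, equal in counts to tS(AGA)A, the ratio was 3.70 (2.66 to 5.26) by reads and 0.603 (0.117 to 1.98) by entries. At low counts, equal pairs were ambiguous: 9 regions with 0 and 25 to 28 reads equalled genes of tG(UCC), a family of only 3 genes.

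The rRNA matches had lower shares in the Bud22 library. INT_0_5234 held 13753 and 17216 antisense reads, against 13752 and 17216 sense reads of RDN37-1, the gene of the long rRNA precursor. Its ratio was 0.395 (0.386 to 0.404) by reads and 0.565 (0.517 to 0.617) by entries, on 560 and 4980 entries. The 6 regions matched to RDN5 held 866 to 908 and 685 to 711 reads, with a ratio of 0.627 (0.602 to 0.653). The remaining match, with 0 and 52 reads, was to 15S_RRNA, the small-subunit rRNA of mitochondria. Regions with numbers near these also held many reads. INT_0_5228 held 3100 and 3845 antisense reads, INT_0_5227 held 1130 and 1869, and INT_0_5235 held 1087 and 3045 sense reads. Their ratios were 0.398 (0.380 to 0.418), 0.298 (0.276 to 0.321) and 0.176 (0.164 to 0.189) by reads. The same regions had entry ratios of 0.601 (0.501 to 0.717), 0.343 (0.248 to 0.462) and 0.454 (0.337 to 0.600), so INT_0_5228 was no longer past the 2-fold limit. INT_0_5232 was the exception among those with many reads, with 6184 and 3121 antisense reads. Its ratio was 0.984 (0.943 to 1.03) by reads and 1.01 (0.873 to 1.18) by entries. With few reads, INT_0_5239, INT_0_5244, INT_0_5247 and INT_0_5250 each held 35 and 0 sense reads, on 1 entry in the Bud22 library. INT_0_5224 held 17 and 5, with a ratio of 1.68 (0.595 to 5.82). INT_0_5231 held 569 and 1055 sense reads on 26 and 153 entries, equal in every count to RDN58-2, a gene of 5.8S rRNA, and had a ratio of 0.266 (0.240 to 0.295) by reads and 0.854 (0.541 to 1.30) by entries.

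Sense reads gathered in regions numbered close to a tRNA match. Of 2354 regions that had no tRNA match, 11.2% had a number within 2 of a matched region, against 40.6% of the 318 with at least 10 sense reads. Within 1 these shares were 6.97% and 27.7%, and within 3 they were 14.4% and 46.5%. All 3 distances were chosen after the values were seen. Regions within 2 held 28711 and 9742 sense reads, 70.9% of Bud22 and 46.1% of control intergenic sense reads. Their share of all overlaps had a ratio of 1.66 (1.63 to 1.70), and other intergenic sense reads one of 0.584 (0.569 to 0.599). By entries of regions with sense reads only, the ratios were 2.26 (2.02 to 2.53) and 1.197 (1.06 to 1.35). These sets are smaller, as tRNA matches and regions with any antisense read are left out. Among those left out of the second are INT_0_5235 and INT_0_5249, with entry ratios of 0.454 and 0.395. The ratios by reads and by entries are therefore not of the same regions.

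The largest of these sense regions stood beside isoleucine and tyrosine matches. INT_0_2067, numbered 1 above INT_0_2066, held 6010 and 1946 sense reads on 39 and 61 entries. This came to 53.9 and 58.4 sense reads per 100 antisense reads of its neighbour. INT_0_2660, numbered 2 above INT_0_2658, held 2628 and 500, or 33.9 and 26.5 per 100, on 29 and 37 entries. Beside other isoleucine matches 2 patterns with opposite directions were seen. INT_0_1388, INT_0_5632 and INT_0_8171 each held 1577 and 166 sense reads, 23.5 per 100 in the Bud22 library against 10.6 to 10.7 in the control, on 22 entries against 24 to 25. INT_0_2085, INT_0_3357 and INT_0_5430 each held 60 and 342, or 0.889 to 0.894 and 21.8 to 22.0 per 100, with 1 entry in the Bud22 library against 21 to 22 in the control.

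Beside the tyrosine matches, INT_0_2806 and INT_0_4380 each held 1839 sense reads in the Bud22 library against 86 and 87 in the control, on 26 entries each against 20 and 21. Per 100 antisense reads of the neighbour this was 67.6 in the Bud22 library for both, and 63.2 and 62.6 in the control. INT_0_2782, INT_0_5762, INT_0_6215 and INT_0_6997 each held 583 reads in the Bud22 library against 43 in the control, on 11 and 10 entries. Their ratio of shares was 6.70 (4.91 to 9.36). Summed over the sense regions of a family, sense reads per 100 antisense reads were lower in the Bud22 library for each of the 6 families, of 7 examined, that had such regions. They were 19.4 and 24.1 for isoleucine, 35.5 and 53.6 for tyrosine, 42.9 and 57.4 for alanine, 15.8 and 18.004 for glycine, 25.5 and 46.2 for asparagine, and 26.2 and 38.0 for threonine. The glycine direction rested on INT_0_307, whose 60 and 342 reads equal those of the isoleucine neighbours above: without it the values were 14.8 and 10.7. Leaving out any other 1 of the regions with at least 30 sense reads turned no family. Regions of equal counts were not left out together, so this does not cover a pattern that several regions share. The 60 and 342 reads of the isoleucine neighbours INT_0_2085, INT_0_3357 and INT_0_5430 are such a pattern, on 1 entry each in the Bud22 library. Leaving out INT_0_2085 alone gave isoleucine values of 19.3 and 22.3. The isoleucine direction was not checked without these regions together.

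**Figure D3:**
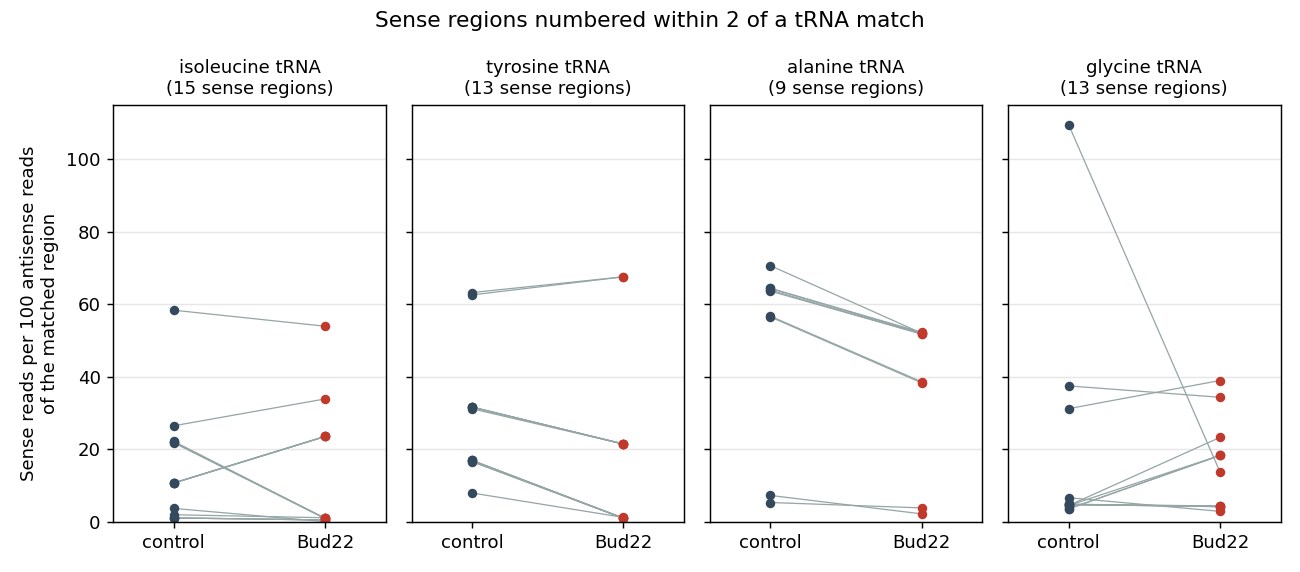
Sense reads of regions numbered within 2 of a tRNA match, per 100 antisense reads of the matched region (y axis), in the control and the Bud22 library; each line is 1 of 50 regions with at least 30 sense reads over both libraries. Isoleucine lines go both ways, while all 9 alanine lines fall from control to Bud22; regions of equal counts overlie each other.

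Equal counts between regions were common on both strands. The 328 regions with at least 10 sense reads had only 169 different pairs of counts, and 221 of them shared their pair with another region. Those 221 held 38.4% of Bud22 and 38.8% of control sense reads. Of 480 regions with at least 10 antisense reads, 245 shared their pair and held 29.5% and 22.9% of antisense reads. Such regions are not independent measurements.

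Some regions mirrored a neighbour on the other strand. For 30 of the 328 regions, a region within 2 numbers had antisense counts equal to their sense counts, and for 19 of these the entries were equal too. The 30 regions held few reads, 987 in the Bud22 library against 193 in the control, and 13 had 0 reads in the control. INT_0_2794 held 178 sense reads on 4 entries in the Bud22 library against 0 in the control, and INT_0_2795 held the same counts as antisense. CUT577, a cryptic unstable transcript, also held 178 and 0 sense reads on 4 entries. INT_0_6510 and INT_0_6509 mirrored each other with 37 and 98 reads on 12 and 40 entries, with a ratio of 0.187 (0.124 to 0.275) by reads and 1.51 (0.720 to 2.93) by entries.

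Sense reads of some other regions equalled named features in reads and entries. INT_0_4930 held the antisense counts of PTR2, a peptide transporter gene, 203 and 0 reads on 8 and 1 entries. INT_0_508 held those of AGP2, which encodes a plasma membrane protein that regulates uptake, 114 and 1 reads on 6 and 1 entries. INT_0_2594 differed from these: its 1619 and 180 sense reads equalled no feature. Its 105 and 47 antisense reads equalled the sense reads of SCR1, the RNA of the signal recognition particle. The entries were not equal, 30 and 52 for the region over both strands against 5 and 25 for SCR1. The ratio of INT_0_2594 over both strands was 3.75 (3.27 to 4.33) by reads and 2.90 (1.79 to 4.63) by entries.

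Examples of regions read in 1 library only follow: those with most entries in the Bud22 library, chosen after the values were seen, and those the naming rule gave for the control. INT_0_780 held 165 sense reads on 14 entries in the Bud22 library against 0 in the control. Set against a floor of 3 reads its share was 27.2-fold higher, and the counting interval of the ratio began lower, at 21.9. Its neighbour by number, INT_0_779, was read in both libraries and held 165 antisense reads on 14 entries and, in the control, 22 on 10, with a ratio of 3.71 (2.37 to 6.07). INT_0_1344 held 79 sense reads on 11 entries, 13.0-fold higher against that floor, with an interval from 10.3. In the other direction, INT_0_149 held 0 reads in the Bud22 library against 109 on 52 entries in the control. That was 73.5-fold lower against that floor, with an interval of the ratio up to 0.0170. INT_0_602 held 0 and 193 sense reads on 22 entries, with an interval by entries up to 0.918. INT_0_3332, INT_0_7848 and INT_0_8099 each held 0 and 183 on 19 entries. For these 3 the interval by entries, up to 1.08, included 1. By that floor of 3 reads, a count of 0 allows a share of up to 0.00138% of intergenic reads in the Bud22 library against 0.00279% in the control.

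Across regions with at least 10 reads over both libraries, 757 in all, 181 (23.9%) had a share of intergenic reads at least 2-fold higher in the Bud22 library with an interval that left out 1, and 333 (44%) a lower one. These shares are the background for the regions named above. Of the 333, 203 had no read in the Bud22 library, so they passed the minimum through the control alone. Of the 181, 54 had no more than 2 entries in the Bud22 library. By entries, with 452 regions, 82 (18.1%) were higher and 77 (17%) lower. By both counts 49 were higher and 75 lower. On a scale of all overlaps, 26.7% of intergenic regions were higher and 43.5% lower, against 23.5% and 52.4% of named features. Of the 142 regions matched to tRNA, 37 were higher and 43 lower by reads. Among the 138 with enough entries, 33 were higher and 11 lower by entries. The median log2 ratio was -0.55 for the tRNA matches and -0.75 for all 757 regions.

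**Figure D4:**
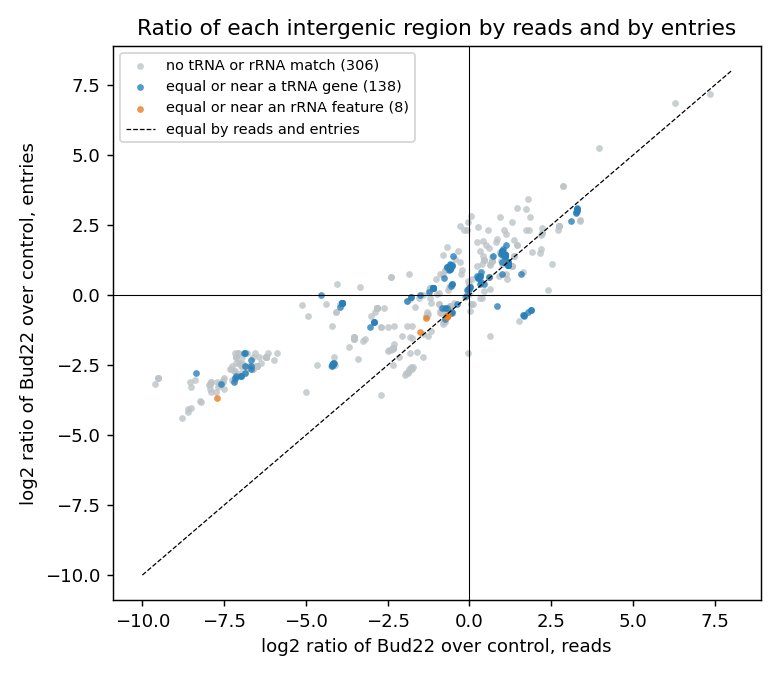
The log2 ratio of Bud22 over control by entries (y axis) against that by reads (x axis) for the 452 intergenic regions with at least 10 entries over both libraries, each as a share of the intergenic total plus a pseudocount of 0.5. Grey, blue and orange points are regions with no tRNA or rRNA match (306), a tRNA match (138) and an rRNA match (8). Most regions with low ratios lie above the dashed line of equality, where the ratio by entries is the higher one. For regions with 0 reads in the Bud22 library this position is fixed by the pseudocount and the library totals, as entries never exceed reads.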

How the data were processed

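Per the file headers, the authors counted reads with pyCRAC's pyReadCounters (Counters 1.2.1) from novo alignments and deposited whole-number counts per feature: sense overlaps, antisense overlaps and a number of reads. The sources used here name no aligner settings, genome build or annotation, and no reference genome was used, so no region has coordinates or sequence. A RefSeq gene list gave the systematic names of tRNA genes whose names carry no chromosome. BUD22 itself is not analysed here.

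Counts were read as deposited with Python 3.11.15, pandas 2.3.3, numpy 2.4.6 and scipy 1.17.1. Shares have exact Clopper-Pearson intervals. Ratios of shares of the intergenic total have exact conditional binomial intervals at the 95% level. A region was called at 10 or more reads over both libraries, a 2-fold difference and an interval without 1. The floor is 3 reads. With 1 library in each group there is no test between conditions.

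Named regions were the 10 with most reads in each library, the 5 with most sense reads in each, the 5 highest and 5 lowest by interval bound, and the 10 leading matches, 32 in all. Others were chosen after their values were seen, as were the near equality, the number distances and the split of mitochondrial from nuclear tRNA families. The regions and lists were chosen with earlier results of these data known.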

Additional observations from a re-analysis of the deposited data

How the results depend on the processing

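The ratio of intergenic shares, 1.14, was 1.06 over antisense reads, 1.13 by entries, 1.05 per mapped read, 1.23 without INT_0_5234, and 1.15 with identical regions counted once. It turned to 0.969 without the tRNA and rRNA matches, an alternative chosen after seeing the data. The antisense share was 80.2% and 76.6% in the Bud22 library and the control without INT_0_5234, and 82.9% and 82.1% with identical regions once. The share of the leading 10 regions was 52.7% and 46.7% for sense reads, 45.0% and 43.5% for antisense reads, 28.7% and 36.5% by entries, and 40.5% and 41.6% with identical regions once. The number of regions measured differs between settings and is given with each count. Regions called higher, 181 of 757, numbered 82 of 452 by entries, 94 of 328 by sense and 101 of 480 by antisense reads. Regions called lower, 333 of 757, numbered 77 of 452 by entries, 134 of 328 by sense and 230 of 480 by antisense reads. They numbered 917 of 2496 with no minimum, 181 of 500 at 30 reads and 204 of 530 with identical regions once. Of the 32 regions named by rule, 9 lost their call without INT_0_5234 and 10 by entries, 4 of which (INT_0_2794, INT_0_2795, INT_0_1527 and INT_0_1528) had too few entries to measure. No called region among these 32 changed direction. Outside them this was not so: INT_0_6510 had a ratio of 0.187 by reads and 1.51 by entries. Sense reads per 100 antisense reads of glycine matches turned without INT_0_307, to 14.8 and 10.7. Those of isoleucine matches were not checked without INT_0_2085, INT_0_3357 and INT_0_5430 together. No paired analysis was possible because each group has 1 library. Fewer entries limit the Bud22 library, and the causes of these changes were not tested.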
